A study of Mus musculus with 14 samples.

Results

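A set of 7 genes of the mast cell and basophil lineage were followed in hematopoietic stem cells (HSCs) that had been transplanted: the chymase genes Cma1 and Mcpt4, the basophil protease gene Mcpt8, the tryptase genes Tpsb2 and Tpsab1, the carboxypeptidase gene Cpa3 and Hdc, which makes histamine. They were chosen by name, and all 7 are among the 1043 genes with values for the age comparison, while Tpsb2 and Mcpt4 are also among the 583 genes with values for the Clu knockout (KO). Both sets together hold 1573 genes. The values show 2 patterns with age. Cma1, Mcpt4, Tpsb2 and Tpsab1 were listed at 0 in every library of young donor origin and above 0 in every library of old donor origin, whereas Cpa3, Hdc and Mcpt8 were present in both, with group means 1.45 to 2.03 times as high in the old. In the Clu KO comparison, Tpsb2 and Mcpt4 were listed at 0 in all 4 KO libraries, but also in 1 of the 3 control libraries.

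The age comparison used 4 libraries of old HSCs (oHSCs) and 3 of young HSCs (yHSCs), all wild type, taken from recipient bone marrow 4 months after transplantation. The Clu KO comparison used old donor cells that expressed Cas9 from a Rosa26 knock-in allele, transduced with lentivirus carrying 3 guide RNAs against Clu (sgClu, 4 libraries) or a control guide (sgCtrl, 3 libraries), marked by mCherry and recovered at the same time after transplantation. All recipients were CD45.1 mice, so donor cells could be told from the cells the host still had, and both arms of the KO experiment carried Cas9 and the virus. The labels give no donor ages. The study's methods list wild-type C57BL/6J mice of 2 months and of more than 18 months, Rosa26-Cas9 donors of 24 months and recipients of 2 months. Full-length complementary DNA was amplified from few cells with SMART-Seq chemistry. The labels call the cells hematopoietic stem and progenitor cells and do not say which libraries came from separate animals, so p-values measure the spread between these libraries, which may be partly technical. Of 12 HSC markers, Procr and Slamf1 are among the age values and were above 0 in all 7 libraries, and other defining markers such as Kit and Ly6a are not among the values analysed here.

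The deposited values are taken as FPKM (reads of a gene divided by its transcript length and by the size of the library), although the headers name no unit. Both sets are taken to hold only genes that the authors had already called different between these same libraries, so p-values below are not independent evidence. The Clu KO set holds fewer genes than the study reports as changed by the KO, and the reason is not given. The age set has as many genes as the study's list of genes higher in oHSCs, so for it the direction itself was selected: a count of genes higher with age, or a gene's place in or outside the set, is no independent finding. Over the 1043 genes the values summed to 71628 to 84123 FPKM in oHSCs and to 42199 to 54607 FPKM in yHSCs, and over the 583 genes to 10841 to 12502 FPKM with sgClu and to 17005 to 18573 FPKM with sgCtrl. These sums are not sequencing depths, which are unknown, so a value of 0 is reported as listed at 0 and not as absence of the transcript. The targeted gene Clu is not among the 583 values, so the KO could not be checked from them. In the age values Clu was at 8.16, 4.10, 1.30 and 9.03 FPKM in oHSCs and at 4.18, 1.64 and 0.717 FPKM in yHSCs.

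Mast cells and basophils are granulocytes that store histamine and proteases in granules bound to proteoglycan and release them when IgE on the cell surface is crosslinked. Both arise in the bone marrow from stem cells through myeloid progenitors in which GATA factors and C/EBP factors act, and mast cells complete their maturation in tissues. Chymases and tryptases are the trypsin-family serine proteases of mast cell granules, carboxypeptidase A3 is stored with them, and the Mcpt8 product is a granule protease of mouse basophils. Cpa3 and Hdc are known to be transcribed early, already in progenitors, whereas the chymases and tryptases mark more mature mast cells. In bulk libraries such as these, fewer cells of a type and less RNA per cell cannot be told apart.

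The members lie on 4 chromosomes (GRCm38, GENCODE M21). On chromosome 14, minus strand, Cma1 spans 55941451 to 55944675, Mcpt4 56059629 to 56062313 and Mcpt8 56082166 to 56085273. This stretch of 144 kb holds 7 protein-coding genes, of which Cma2, Mcpt1, Mcpt9 and Mcpt2 are not among the age values. Tpsab1 (chr17:25343245-25345562, minus strand) and Tpsb2 (chr17:25366305-25369098, plus strand) are the only genes annotated across the 25.9 kb that they span. Tpsab1 is protein coding in GENCODE and a transcribed pseudogene in RefSeq. Cpa3 lies at chr3:20215620-20242181 and Hdc at chr2:126593667-126619299, both on the minus strand. Of the 50-base words of the longest transcript, 5.38% for Cma1 occur also in Gm48934 and 5.48% for Mcpt4 also in Cma2 or Mcpt9. For Hdc the share is 0.201%, and for Mcpt8, Tpsb2, Tpsab1 and Cpa3 it is 0, so little of the signal could be split among near copies.

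The 250 bases before the start site are shown for 4 members, the 3 neighbours on chromosome 14, which differed in pattern, and Cpa3, the most abundant member (RefSeq, GRCm38.p6, minus strand, 5′ to 3′). Capitals mark GATA words (GATA preceded by A or T and followed by A or G, on either strand) and TATAAA on the strand shown.
Cma1, chr14:55944676-55944925: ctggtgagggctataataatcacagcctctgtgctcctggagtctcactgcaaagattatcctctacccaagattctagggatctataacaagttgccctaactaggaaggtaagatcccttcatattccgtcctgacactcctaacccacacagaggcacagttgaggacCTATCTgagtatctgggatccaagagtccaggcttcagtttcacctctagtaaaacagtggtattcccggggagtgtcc
Mcpt4, chr14:56062311-56062560: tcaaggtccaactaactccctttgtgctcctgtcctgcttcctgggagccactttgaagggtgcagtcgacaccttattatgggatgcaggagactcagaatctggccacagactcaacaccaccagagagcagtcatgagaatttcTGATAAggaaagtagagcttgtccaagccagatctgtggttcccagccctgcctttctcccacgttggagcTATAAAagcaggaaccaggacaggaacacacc
Mcpt8, chr14:56085198-56085447: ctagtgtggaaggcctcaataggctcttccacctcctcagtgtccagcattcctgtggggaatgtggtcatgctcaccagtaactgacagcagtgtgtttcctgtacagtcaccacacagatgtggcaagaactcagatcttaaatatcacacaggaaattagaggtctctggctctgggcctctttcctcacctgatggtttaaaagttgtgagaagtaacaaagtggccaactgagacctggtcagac
Cpa3, chr3:20242182-20242431: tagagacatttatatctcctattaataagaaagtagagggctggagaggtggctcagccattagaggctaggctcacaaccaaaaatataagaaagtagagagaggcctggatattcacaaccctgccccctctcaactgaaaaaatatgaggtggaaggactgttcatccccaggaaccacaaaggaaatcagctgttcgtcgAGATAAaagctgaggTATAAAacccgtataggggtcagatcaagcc
Tpsb2 and Tpsab1 had no promoter entry. Of the 5 members with one, Cma1, Mcpt4, Cpa3 and Hdc held a GATA word, as did 26.5% of the 32851 promoters of this length. The word stood at position -79 in Cma1, -103 in Mcpt4, -46 in Cpa3 and -221 in Hdc, counted from the start site, and Mcpt8 had none. TATAAA was found in Mcpt4 at -32 and in Cpa3 at -31, against 7.59% of all promoters. An E-box word (CANNTG) was found in 4 of the 5, against 66.2% of all promoters. These matches describe the letters only.

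Cma1, the mast cell chymase gene, reached the highest level of the members listed at 0 in yHSCs. It was at 54.6, 58.9, 11.6 and 11.8 FPKM in the 4 oHSC libraries and at 0 in the 3 yHSC libraries. The oHSC libraries split into a high and a low pair, and even the low pair lay above every yHSC library. Tpsb2, the tryptase gene of connective tissue mast cells, was at 30.1, 36.4, 6.55 and 10.3 FPKM in oHSCs and at 0 in yHSCs. Mcpt4, a chymase gene of connective tissue mast cells, was at 7.56, 6.76, 2.41 and 3.77 FPKM in oHSCs and at 0 in yHSCs. Both genes were again highest in oHSC replicates 1 and 2, and neither overlapped between the groups. Means were 34.2 ± 26.1 FPKM for Cma1, 20.8 ± 14.6 FPKM for Tpsb2 and 5.12 ± 2.44 FPKM for Mcpt4 (SD, n = 4). No fold change is given, because each yHSC value was 0.

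Tpsab1, the other tryptase gene, was at 2.34, 0.0286, 1.18 and 0.886 FPKM in oHSCs and at 0 in yHSCs. Its oHSC replicate 2 was close to 0 although that library had the highest level of Tpsb2. At levels this low and with depth unknown, these values cannot show whether the tryptase genes follow each other from library to library. Its mean of 1.11 ± 0.957 FPKM (SD, n = 4) was the lowest of the members.

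Cpa3, whose product trims peptides in the granule, was the most abundant member. It was at 425.0, 238.4, 301.7 and 258.2 FPKM in oHSCs and at 182.0, 168.8 and 100.3 FPKM in yHSCs. Every oHSC library lay above every yHSC library. On the log2(FPKM + 1) scale, where all log2 fold changes here were computed, oHSCs exceeded yHSCs by 1.03 (SE 0.29, limma, adjusted p = 0.0248).

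Hdc, the only enzyme that makes histamine from histidine, was at 25.6, 26.5, 9.29 and 15.5 FPKM in oHSCs and at 13.6, 7.44 and 7.35 FPKM in yHSCs. The groups overlapped, as oHSC replicate 3 lay below yHSC replicate 1. Hdc exceeded its yHSC level by 0.89 on the log2 scale (SE 0.37, limma, adjusted p = 0.0648). Mcpt8, the basophil protease gene, was at 241.3, 200.3, 163.3 and 215.0 FPKM in oHSCs and at 173.6, 123.7 and 125.6 FPKM in yHSCs. It overlapped at the same libraries, with oHSC replicate 3 below yHSC replicate 1. Its log2 fold change of 0.54 (SE 0.23, adjusted p = 0.0706 by limma) was the smallest among the members and below the median of 0.70 over all 1043 genes.

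**Figure D1:**
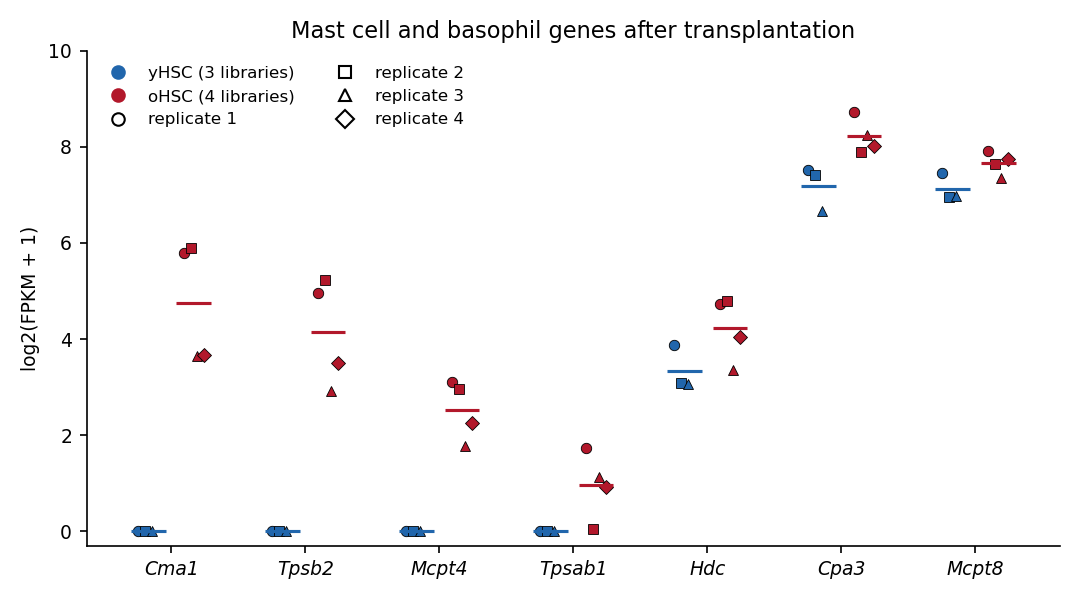
Levels of the 7 genes in each transplanted library, as log2(FPKM + 1) on the vertical axis, with points for libraries and bars for group means. Cma1, Tpsb2, Mcpt4 and Tpsab1 sit at 0 in all 3 yHSC libraries, while Hdc and Mcpt8 overlap between the groups.

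A gene was called at an unadjusted two-sided limma p under 0.05 and an absolute log2 fold change over 0.5, the limits that the study's methods give. All 7 members were called higher in oHSCs, as were 62.5% of the 1043 genes (652 higher and 10 lower). The limma adjusted p was 0.000529 for Cma1, 0.000597 for Tpsb2, 0.000714 for Mcpt4 and 0.0508 for Tpsab1. Complete separation of the groups held for 5 members (Cma1, Mcpt4, Tpsb2, Tpsab1 and Cpa3) and for 49.7% of the 1043 genes. With the replicate number as a block, all 7 members stayed past the limits, as did 72.1% of the genes. By the exact two-sided permutation test of group means, p was 0.0571 for the 5 separated members, the smallest that 4 against 3 libraries allow, and 0.114 for Hdc and Mcpt8.

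The calls were also read after scaling. Rescaling each library to the listed genes themselves brought the median log2 fold change of all genes from 0.70 to 0.07 by median of ratios, to 0.06 by TMM and to 0.19 by column totals, and the calls from 652 higher and 10 lower to 125 and 54, 123 and 57, and 151 and 40. Cma1, Mcpt4, Tpsb2 and Tpsab1 kept their calls under all 3 scalings, but a value of 0 stays 0 under any scaling, so their separation could not change. Cpa3 fell to a log2 fold change of 0.21, 0.19 and 0.36 and Hdc to 0.13, 0.11 and 0.28, none past the limits, and Mcpt8 turned to -0.28, -0.30 and -0.13. The Hdc and Mcpt8 calls also rested on single libraries: leaving out oHSC replicate 1 or 2 or yHSC replicate 2 or 3 ended both (Hdc 0.71 to 0.76 and Mcpt8 0.46 to 0.55 on the log2 scale), and leaving out oHSC replicate 4 ended that of Mcpt8 (0.51). The Tpsab1 call ended without oHSC replicate 3.

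Among all 1043 genes, 36 (3.45%) were listed at 0 in every yHSC library and 26 (2.49%) were also above 0 in every oHSC library. Of the 36, 4 had an oHSC mean of at least 5 FPKM, namely Cma1, Tpsb2, Mcpt4 and 1700048O20Rik. That cut uses the group in which the set was selected to be high, and it lies just below the 5.12 FPKM of Mcpt4. The count is therefore a description and no evidence about these genes. In order of mean oHSC level the members ranked 44 (Cpa3), 57 (Mcpt8), 269 (Cma1), 377 (Tpsb2), 397 (Hdc), 677 (Mcpt4) and 931 (Tpsab1) of 1043. Between Cpa3 and Mcpt8 the oHSC ranges overlapped at 238.4 to 241.3 FPKM. Cma1, Tpsb2 and Hdc also overlapped in range. Within each oHSC library, however, Cpa3 lay above Mcpt8, Mcpt8 above Cma1 and Cma1 above Tpsb2, and the ranges of Mcpt8 and Cma1 and of Hdc and Mcpt4 did not meet. In yHSCs Cpa3 and Mcpt8 overlapped and both lay above Hdc.

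**Figure D2:**
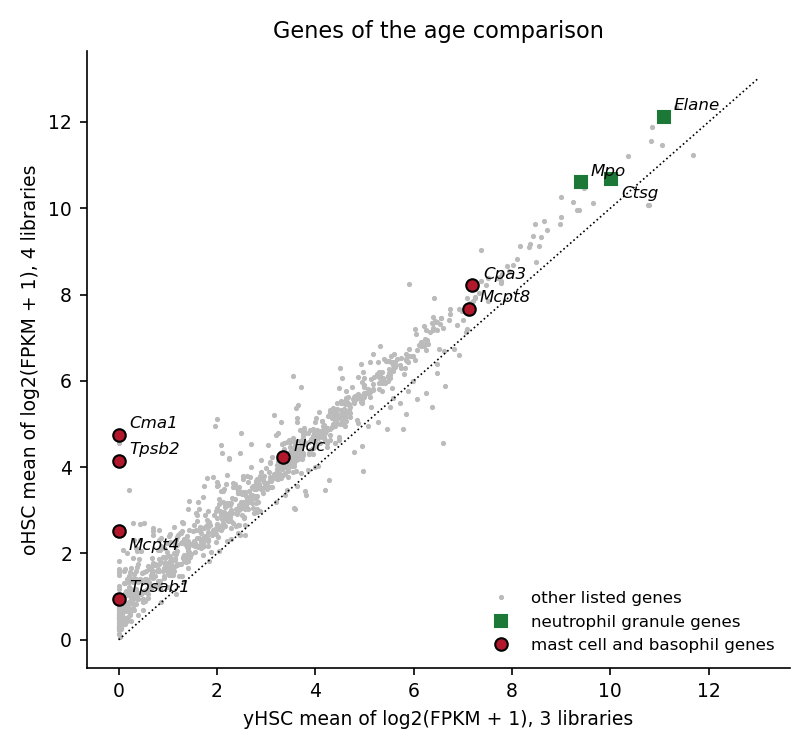
Mean log2(FPKM + 1) of each of the 1043 genes in 3 yHSC libraries (horizontal) and 4 oHSC libraries (vertical), with the dotted line at equal levels. Cma1, Tpsb2, Mcpt4 and Tpsab1 stand on the vertical axis, and Cpa3, Mcpt8 and Hdc lie within the band of other listed genes.

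The oHSC libraries differed more for the chymase and tryptase genes than for most listed genes. The coefficient of variation was 76.3% for Cma1, 70.2% for Tpsb2, 47.5% for Mcpt4 and 86.3% for Tpsab1, against a median of 25.3% over the 935 genes with an oHSC mean of at least 1 FPKM. It was 43.1% for Hdc, 27.4% for Cpa3 and 15.9% for Mcpt8. Of those genes, 1.07% varied more than Tpsab1, 1.93% more than Cma1, 2.89% more than Tpsb2 and 11.2% more than Mcpt4. The shares were 13.9% for Hdc, 43.2% for Cpa3 and 78.6% for Mcpt8. The filter was set on the oHSC mean, the group in which the set was selected to be high, so these shares are descriptions. The members also differed widely in level, and the part of level in their spread was not tested. The highest oHSC library held 5.1 times the lowest for Cma1 and 5.56 times for Tpsb2, where the median gene had 1.77 times.

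Cma1 and Tpsb2 kept similar proportions across these libraries. The ratio of Cma1 to Tpsb2 was 1.82, 1.62, 1.76 and 1.14 in oHSC replicates 1 to 4, while that of Cpa3 to Cma1 was 7.79, 4.05, 26.1 and 21.9. The first ratio thus varied less than the second. The ratio of Cma1 to Mcpt4 was 7.22, 8.71, 4.79 and 3.12, so these chymase genes kept no fixed proportion. Summed over Cma1, Mcpt4, Tpsb2 and Tpsab1, the level was 94.5, 102.1, 21.7 and 26.8 FPKM, and summed over Cpa3, Hdc and Mcpt8 it was 691.9, 465.2, 474.3 and 488.7 FPKM. The highest pair of libraries for the first sum was not the highest pair for the second.

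**Figure D3:**
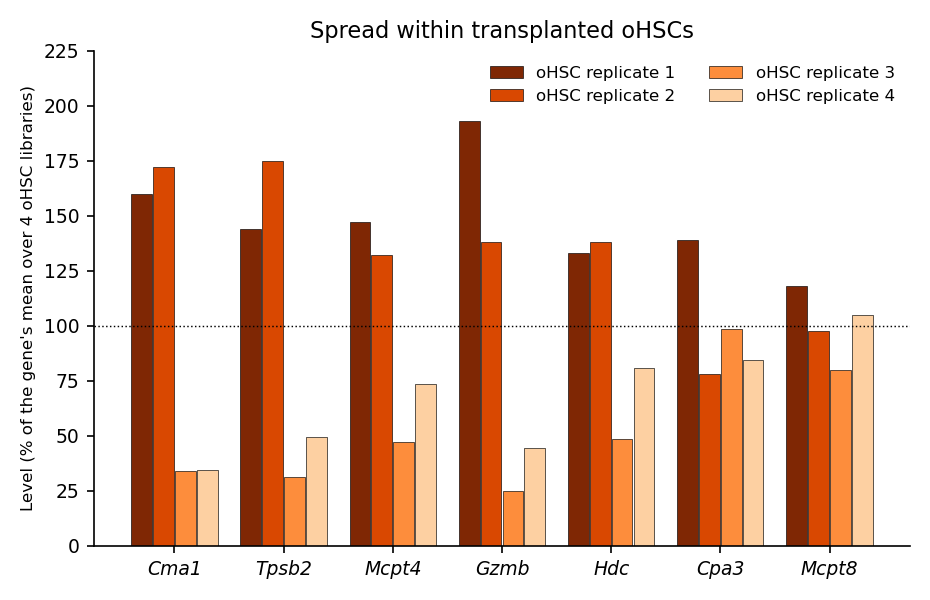
Level of each gene in the 4 oHSC libraries as a percentage of its own oHSC mean (vertical axis, dotted line at 100%). Cma1, Tpsb2, Mcpt4, Gzmb and Hdc are highest in replicates 1 and 2, and Cpa3 and Mcpt8 are spread more evenly.

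Correlations of log2(FPKM + 1) over the 7 age libraries are given as descriptions, because 4 oHSC and 3 yHSC libraries form separate groups, which by itself raises r. Pearson's r was 0.997 between Cma1 and Tpsb2, 0.994 between Cma1 and Mcpt4 and 0.997 between Mcpt4 and Tpsb2. It was 0.905 between Mcpt8 and Hdc, 0.672 between Cpa3 and Hdc and 0.393 between Tpsab1 and Hdc. Outside the members, the genes most like Cma1 were Gm15915, Xlr3a, Tm4sf1, G6pdx and Wdr55 (r from 0.976 to 0.987), but 14% of the 1036 other genes had an r over 0.9 with it. Those most like Tpsb2 were Gm15915, Wdr55, Paqr3, G6pdx and Traip, and those most like Mcpt4 were Xlr3a, Paqr3, Gm15915, Wdr55 and Gm21188, with 12.5% of genes over 0.9 for each. Cpa3 was most like Clec12a, Gfi1b, Gstm1, Fcgr3 and Vps26c (14.4% over 0.9). Hdc was most like Ncstn (0.99), Cd200r3, Bid, Selplg and Flad1, and Mcpt8 was most like Cldn10 (0.992), Ralb, Bdh2, Gm15285 and Zfp563. Here fewer genes passed 0.9, 3.67% for Hdc and 4.34% for Mcpt8.

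Other genes of the lineage were read from 6 lists. Of the 15 genes listed for the chymase locus and related serine proteases, 5 are among the age values and all 5 were called higher, as were 62.5% of all genes in the set: the members Cma1, Mcpt4 and Mcpt8 with Ctsg (log2 fold change 0.66) and Gzmb. The list's median of 1.87, against 0.70 over all genes, includes Cma1 and Mcpt4, whose fitted values depend on the pseudocount. Ctsg encodes cathepsin G of neutrophil granules and Gzmb granzyme B of cytotoxic granules. Their nearest edges lie 14.6 and 174 kb past Mcpt8, and both are on the minus strand. Gzmb was at 9.58, 6.84, 1.23 and 2.20 FPKM in oHSCs and at 0.322, 0.848 and 0 FPKM in yHSCs, again highest in oHSC replicates 1 and 2, 1.87 higher on the log2 scale (SE 0.50, adjusted p = 0.0211 by limma) and with no overlap. Of 9 genes at the tryptase locus and of 15 genes for granule content and mediator synthesis, only members are among the age values, 2 of each list.

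Among 25 receptor and signalling genes, 3 are among the age values and all 3 were called higher, as were 62.5% of the 1043 genes. Cd200r3, an activating receptor of mast cells and basophils, was at 3.78, 2.80, 0 and 1.45 FPKM in oHSCs and at 0.504, 0 and 0 FPKM in yHSCs, so the groups overlapped (log2 fold change 1.17). Lat and Btk, which relay signals from antigen and Fc receptors, were at 0.64 and 0.56 on that scale, and both turned below 0 under the 3 scalings. The list's median was 0.64, below that over all genes. The IgE receptor genes Fcer1a and Ms4a2 are not among the values analysed here.

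Of 17 transcription factor genes, 3 are among the age values and 2 were called higher, against 62.5% of the 1043 genes. Gata1, a factor of erythroid, megakaryocyte, mast cell and basophil development, was at 20.6, 20.7, 15.5 and 16.3 FPKM in oHSCs and at 11.3, 8.22 and 9.39 FPKM in yHSCs. It separated the groups, with a log2 difference of 0.86 (SE 0.22, adjusted p = 0.0189 by limma), but its call ended under all 3 scalings. Cebpb, a factor of granulocyte and macrophage genes, had a log2 fold change of 1.45 and kept its call under each. Spi1, which encodes PU.1, had a log2 fold change of 0.61 that missed the p limit, but passed both limits with the replicate block (0.71). Of 13 cytokine genes, Il4, which basophils secrete, was called higher, at 3.89, 3.58, 2.84 and 3.84 FPKM against 1.30, 0 and 1.63 FPKM (log2 fold change 1.31, SE 0.32, adjusted p = 0.0165 by limma). Il6 was not called, at 0.249 to 9.33 FPKM in oHSCs and 1.24 to 1.98 FPKM in yHSCs. The Il4 call held with column totals and ended with the other scalings.

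Markers of other cell types were read in the same way, against the 62.5% of all genes called higher. Of the neutrophil and granulocyte progenitor markers, 5 of 11 are among the age values (Elane, Mpo, Ctsg, Ms4a3 and Lyz2), all 5 called higher, and their summed level was 7960 to 11249 FPKM in oHSCs and 4095 to 5111 FPKM in yHSCs. All 5 lost their call under every scaling, and Ctsg, Ms4a3 and Lyz2 turned below 0. Of the erythroid markers, Car1, Car2 and Blvrb were called higher, with log2 fold changes of 1.26, 1.05 and 1.04, as was Klf1, at 27.6 to 42.8 FPKM in oHSCs and 9.06 to 16.6 FPKM in yHSCs, and Epor was not called. Of the megakaryocyte markers, 4 of 8 are present, and Pf4, Gp9 and Ppbp were called higher and Vwf was not, with sums of 268.7 to 497.8 against 175.0 to 240.9 FPKM. With the replicate block the Pf4 call ended (0.50 on the log2 scale). The HSC markers Procr and Slamf1 were both called higher, the latter not with the block (0.67), with log2 fold changes of 0.90 and 0.75 and sums of 11.8 to 20.7 against 4.42 to 11.5 FPKM. None of the 5 eosinophil or 7 lymphoid markers is among the values. Of the 22 called list genes that are no members, 4 (Cebpb, Klf1, Gzmb and Cd200r3) kept their call under all 3 scalings. The part of these cell types in the member values was not tested.

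The primary granule genes of neutrophils offered the nearest comparison. Elane, which encodes neutrophil elastase, was at 5743, 3800, 4109 and 4383 FPKM in oHSCs and at 2365, 2367 and 1825 FPKM in yHSCs. Elane, Mpo and Ctsg, 3 of the 4 genes in this set, had log2 fold changes of 1.04, 1.21 and 0.66. These values lie beside the 1.03 of Cpa3 and the 0.54 of Mcpt8. Unlike the chymase and tryptase genes, none of the 3 was listed at 0 in any library. That contrast is not between like levels. Mean oHSC levels of Elane, Mpo and Ctsg were 4509, 1615 and 1635 FPKM, and those of the chymase and tryptase genes 1.11 to 34.2 FPKM. Whether the 2 sets differ was not tested.

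In the Clu KO comparison, Tpsb2 was at 2.55, 0 and 34.7 FPKM with sgCtrl and at 0 in all 4 sgClu libraries. Mcpt4 was at 0.317, 0 and 7.77 FPKM with sgCtrl and also at 0 in all 4 sgClu libraries. Both genes were high in sgCtrl replicate 3, low in replicate 1 and listed at 0 in replicate 2, so the groups overlapped at 0. Tpsb2 passed the limits and was called lower (adjusted p = 0.0602 by limma), as were 50.1% of the 583 genes, and Mcpt4 was not (adjusted p = 0.117 by limma). The exact two-sided permutation p was 0.286 for both. Neither member separated the groups, whereas 52.5% of the 583 genes did.

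**Figure D4:**
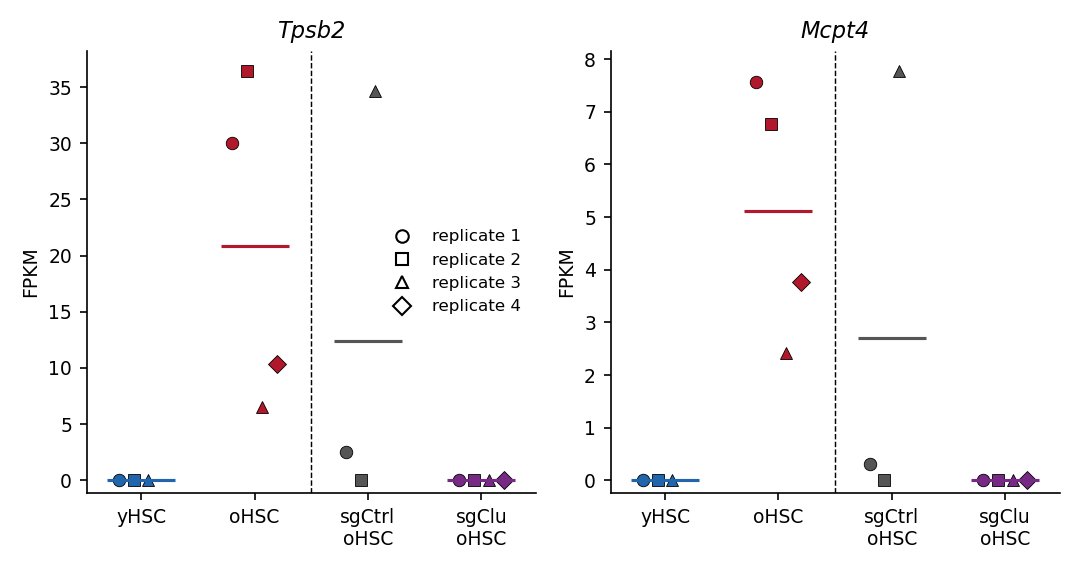
Tpsb2 (left) and Mcpt4 (right) in FPKM in every library of both comparisons, with points for libraries and bars for group means. The dashed line parts the 2 experiments, whose values come from separate deposited sets, and in the right-hand experiment 1 sgCtrl library carries most of the signal.

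The Tpsb2 call lay close to the limit. Without sgCtrl replicate 2, after which neither gene was at 0 in a control library, both were called lower. Leaving out any 1 of the other 6 libraries ended the Tpsb2 call, although omission of an sgClu library, all at 0, changed no group mean and only made the test less powerful. It ended under all 3 scalings over the listed genes, which moved the median log2 fold change from -0.52 to between -0.12 and -0.07 and the calls from 90 higher and 292 lower to 130 and 59, 130 and 56, and 129 and 70.

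Replicate 3 held 96.1% of the summed sgCtrl level of Mcpt4 and 93.2% of that of Tpsb2. Over the 500 genes with an sgCtrl mean of at least 1 FPKM, the median share of the highest library was 39.5%, Mcpt4 and Tpsb2 ranked 1 and 2, and the next gene, Fgd5, had 71.4%. Both genes passed this filter through replicate 3, as Tpsb2 was at 2.55 FPKM and Mcpt4 at 0.317 FPKM in replicate 1 and both at 0 in replicate 2. A low gene carried by 1 library enters only where that library is high, so these ranks are descriptions and no independent finding. Replicate 3 was not the highest library in general: it was highest for 165 of the 500 genes, replicate 1 for 227 and replicate 2 for 108. The same library was low in the neutrophil genes S100a8 (14.2 FPKM, against 158.7 and 162.1 in replicates 1 and 2) and S100a9 (1.87 against 18.1 and 13.3 FPKM). Only 6 of the 583 genes (1.03%) were listed at 0 in every sgClu library, and only Mcpt4 and Tpsb2 among them had an sgCtrl mean of at least 1 FPKM. Both reached that mean through replicate 3, so this too is a description.

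**Figure D5:**
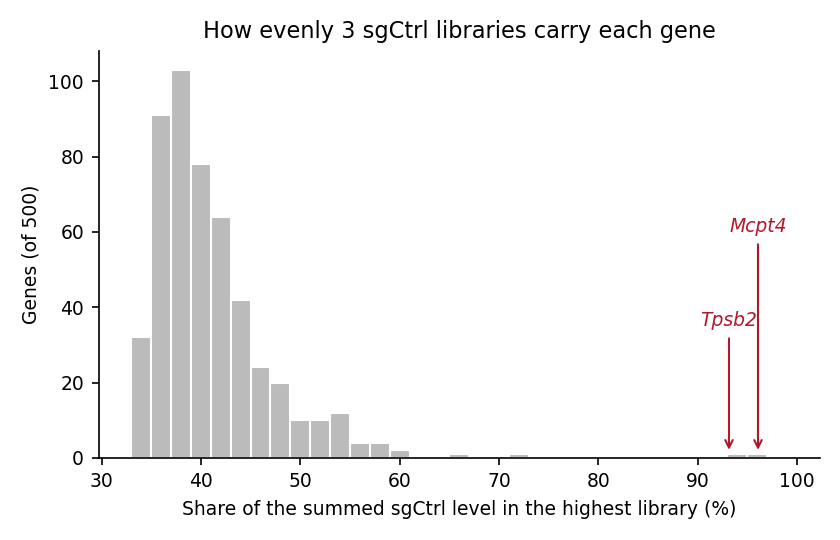
Share of a gene's summed level over 3 sgCtrl libraries that its highest library holds (horizontal axis, percent), as a histogram of 500 genes. Tpsb2 is at 93.2% and Mcpt4 at 96.1%, and none of the other 498 genes passes 71.4%. The genes shown have an sgCtrl mean of at least 1 FPKM, which Tpsb2 and Mcpt4 reached through replicate 3.

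The ratio of Tpsb2 to Mcpt4 can be set beside that in the age libraries, since both values come from the same library. It was 8.03 and 4.46 in sgCtrl replicates 1 and 3 and 3.98, 5.39, 2.72 and 2.75 in the 4 oHSC libraries, so Tpsb2 was the higher of the pair on this per-length scale wherever both were above 0. Cma1, Mcpt8, Tpsab1, Cpa3 and Hdc are not among the 583 values analysed here, so their response to the guides against Clu is not reported.

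Few other lineage genes are among the Clu KO values, and their calls are read against the 50.1% of the 583 genes called lower. Ptgs1, which encodes a cyclooxygenase of prostaglandin synthesis, was the only other gene of the granule and mediator list, called lower at a log2 fold change of -0.97. Bhlhe40 (-1.75) and Cebpb (-0.86) were the 2 of 17 transcription factors. Both were called lower with every sgClu library below every sgCtrl library, as held for 52.5% of the 583 genes. Of 13 cytokine and chemokine genes, Ccl4 (-0.86) and Osm (-0.82) were called lower, and Lif (-0.38) was not. Of the marker lists, S100a9 was called lower and S100a8 was not, and Procr (-0.76) was called lower and Fgd5 (-0.63) was not. Under the 3 scalings Bhlhe40 and S100a9 kept their calls, and the other 5 called list genes lost theirs. No gene of the receptor list, no erythroid or megakaryocyte marker and none of the 4 neutrophil primary granule genes is among these values.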

How the data were processed

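RNA-seq values of 14 libraries were analysed. The authors prepared them with SMART-Seq v4 and Nextera XT, trimmed reads with TrimGalore, aligned to mm10 with Hisat2, counted with FeatureCounts and called genes with DESeq2. The unit of the deposited values is read as FPKM, which the authors' processing would have scaled by gene length and sequencing depth. As no header states it, TPM is possible. Gene annotation and unit conversion are not given in the sources used here. Library depth is unknown: a search for whole-read steps found at most 5.8% (age) and 5.56% (Clu KO) of genes within a 1% window.

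limma 3.58.1 (R 4.3.3) was fitted to log2(FPKM + 1) over all genes of each comparison, two-sided, with Benjamini-Hochberg adjustment over them, and was tested on simulated data. The call limits (p of 0.05, log2 fold change of 0.5) are those of the study's methods, which leave unclear whether p is corrected. Exact permutation tests (SciPy 1.17.1, 35 arrangements) doubled the smaller tail. Same-numbered libraries deviated together in the age comparison (r = 0.405, 0.163 and 0.161), so the label numbers were used as pairs in the fit with a block, where oHSC replicate 4 has no partner and carries no weight. Of the pairs with unlike numbers, oHSC replicate 4 with yHSC replicate 3 reached r = 0.191, and the others ranged from -0.316 to 0.037. The pairing is thus an assumption. The replicate block was also fitted to the Clu KO libraries as an alternative. Same-numbered libraries there did not deviate together (r = -0.10, 0.073 and 0.058). Alternatives were a pseudocount of 0.1, a minimum group mean of 1 FPKM, 3 scalings to the genes of each set (median of ratios, trimmed mean of M-values, called TMM, and column totals), a mean-variance trend in limma, the replicate block, calls on the adjusted p, a doubled size limit of 1 on the log2 scale, and omission of single libraries.

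Members and lists were chosen with earlier results of these data known. Named are the members, the list genes among the values (1 marker is not reported here), the 5 genes most correlated with each of 6 members, and the neutrophil granule genes. 1700048O20Rik and Clu were named after their values were seen. Promoters come from RefSeq and positions from GENCODE M21, which need not be the authors' annotation.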

Additional observations from a re-analysis of the deposited data

Results flagged for a closer look

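Of 43 combinations of a gene and a group of 4 libraries that were examined, 1 had a library far from the others. Fgd5, an HSC marker, was at 0.193, 0.199, 0.208 and 0.519 FPKM in the sgClu libraries, and the gap of replicate 4 to the nearest other library took up 0.954 of the group's range, above Dixon's 95% critical value for 4 libraries. Chance flags about 1 in 20 such groups.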

How the results depend on the processing

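In the age comparison, the count of members called higher, 7 as reported, was 4 under each of the 3 scalings, with adjusted p-values and with a log2 fold change limit of 1, and 5 to 7 with 1 library left out. Cma1, Mcpt4 and Tpsb2 kept their calls under all 16 alternatives, Cpa3 under 13 and Tpsab1 under 13, Hdc under 6 and Mcpt8 under 4. The yHSC values of 0 stay 0 under any scaling and without any yHSC library, so these counts were partly fixed in advance. Among list genes outside the members, Cebpb, Klf1 and Gzmb also kept their calls under all 16. With adjusted p-values the calls over all genes came to 389 higher, with a limit of 1 to 197, and with 1 library left out to between 405 and 655. Under median-of-ratios scaling the log2 fold change turned to -0.28 for Mcpt8, -0.16 for Btk, -0.16 for Ctsg, -0.10 for Epor, -0.15 for Lat, -0.16 for Lyz2, -0.18 for Ms4a3, -0.14 for Pf4 and -0.20 for Spi1. Under TMM it turned to -0.30, -0.18, -0.18, -0.12, -0.17, -0.19, -0.20, -0.16 and -0.22 for the same genes. With column totals it turned to -0.13 for Mcpt8, -0.026 for Btk, -0.0067 for Ctsg, -0.0045 for Lat, -0.0100 for Lyz2, -0.025 for Ms4a3 and -0.051 for Spi1. These scalings rest on selected genes that mostly move one way, so they remove much of the shared shift. In the Clu KO comparison, the count of members called lower, 1 as reported, was 0 under each scaling, with adjusted p-values and in the replicate block fit, and 0 to 2 with 1 library left out. Of all 583 genes, 292 were called lower as reported and 59, 56 and 70 under the scalings. With adjusted p-values 281 were called lower, with the block 270, and with 1 library left out 241 to 295. With the log2 fold change limit of 1 the calls over all genes came to 7 higher and 69 lower. In the replicate block fit the unadjusted limma p of Tpsb2 rose from 0.0477 to 0.0641, and the same-numbered Clu KO libraries, which share only a number, deviated at r = -0.10, 0.073 and 0.058. The block changed no other call of a member. Among list genes it ended the calls of Pf4 and Slamf1 and gave one to Spi1 in the age comparison, and in the Clu KO comparison it ended those of Osm and Procr and gave one to S100a8. The cause of each change was not tested. The depth of the libraries is unknown, so it cannot be said what level a value of 0 allows.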
